A study of Homo sapiens with 2 samples.

Results

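The replication-dependent histone genes are the many near-copies that encode the bulk linker histone H1 and the core histones H2A, H2B, H3 and H4. Here they were taken as every peak in the deposited list whose assigned gene carries a clustered histone symbol (H1-1 to H1-6, or H2AC, H2BC, H3C or H4C followed by a number). The rule found 90 of 175546 peaks, assigned to 56 of 19297 genes. All 56 gene identifiers matched the RefSeq gene table with the same symbol, and 1 of them, H2BC20P, is a pseudogene. Of the 90 peaks, 58 overlapped the gene they were assigned to, in 52 genes, and 32 lay beside it, in 18 genes. Over the whole list, 98661 of 175546 peaks overlapped their assigned gene, in 16765 of 19297 genes.

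The list compares RNA recovered with CRTC2, which assists the transcription factor CREB in gene activation, with input RNA of the same cells (RNA immunoprecipitation sequencing, RIP-seq). The cells were HCCLM3, an established human hepatocellular carcinoma line labelled as wild type. The CRTC2 RIP group had 1 library and the input group had 1 library, with no stated treatment in either. The design text sets out to find transcripts bound by CRTC2 together with YTHDF2, a reader of N6-methyladenosine in RNA. The samples used here hold no precipitation with a control antibody, so RNA bound to CRTC2 and RNA carried through the precipitation cannot be told apart. With 1 library a group nothing here has a replicate check, no difference was tested and no p-value was computed.

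Replication-dependent histone genes sit in dense clusters and are short and without introns. They are switched on in S phase, when new DNA is packed into nucleosomes. Their mRNAs end in a conserved stem-loop in place of a poly(A) tail, and the stem-loop binding protein SLBP guides their processing, translation and decay. Libraries made without poly(A) selection can hold these mRNAs, and the labels name a total RNA kit.

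Histone promoters carry short elements that many, but not all, copies of a family share. The lines give the 100 bases before the start site, 5′ to 3′ on the coding strand, for 1 gene of each family (RefSeq, GRCh38.p14). These genes are among those named below by their values and were not chosen as typical of their family. Capitals mark the TATA box TATAAA, the CCAAT box (ATTGG where it lies on the other strand) and the octamer ATTTGCAT, which is bound by the factor OCT1.
H1-4: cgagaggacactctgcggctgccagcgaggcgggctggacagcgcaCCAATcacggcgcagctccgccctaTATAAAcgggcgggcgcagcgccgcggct
H2AC18: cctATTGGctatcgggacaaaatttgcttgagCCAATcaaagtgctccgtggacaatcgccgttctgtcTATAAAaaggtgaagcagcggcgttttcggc
H2BC10: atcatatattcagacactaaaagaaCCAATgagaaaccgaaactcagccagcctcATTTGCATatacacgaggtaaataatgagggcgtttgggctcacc
H3C1: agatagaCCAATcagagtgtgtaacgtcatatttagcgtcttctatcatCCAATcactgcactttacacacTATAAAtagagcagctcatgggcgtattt
H4C13: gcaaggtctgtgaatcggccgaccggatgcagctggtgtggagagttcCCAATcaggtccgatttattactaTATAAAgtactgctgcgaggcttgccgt
H1-4, H2AC18, H3C1 and H4C13 show the same CCAAT and TATAAA in these windows, and H2BC10 shows CCAAT and the octamer. The windows lie on chromosome 6 for H1-4, H2BC10, H3C1 and H4C13 and on chromosome 1 for H2AC18.

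RefSeq held a promoter window of 300 bases, from 250 before to 50 after the start, for 47 of the 52 genes with a peak over them. On either strand, TATAAA was in 32 of 47 windows (68.1%), against 14% of 27305 genes with a window. CCAAT was in 38 of 47 (80.9%), against 39.7% of all genes. It was in every H1, H2A, H2B and H3 window matched, and in 2 of 11 H4 windows, H4C13 among them. The octamer was in 19 of 47 (40.4%), against 2.19% of all genes, and these were 10 of 12 H2B and 9 of 12 H2A windows. Matches to different motifs overlapped in 0 of the 47 windows. A match describes the letters of the window, and binding was not measured.

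Some copies are identical at the start of the transcript, while others differ there. The lines give the first ATG of H4 genes and what follows it within the first 50 transcribed bases (RefSeq, GRCh38.p14), with capitals for bases under a listed peak.
H4C11: ATGTCTGGCCGCGGCAA
H4C12: ATGTCTGGCCGCGGCAA
H4C13: atgtctgggcgcggcaaaggcgggaa
H4C14: ATGTCCGGCAGAGGAAAGGGCG
H4C15: atgtccggcagaggaaagggcg
H4C9: atgtcaggacgcggcaaaggagg
H4C11 and H4C12 were the same in the first 50 transcribed bases, and so were H4C14 and H4C15. H4C9, H4C13 and the pairs differed from one another in the bases shown. The windows from 250 bases before to 50 after the start, mostly promoter, were identical in 300 of 300 positions for H4C14 and H4C15, those of H2AC18 and H2AC19 shared a run of 299 bases, and those of H3C14 and H3C15 a run of 296, and the rest of the transcripts was not compared. How the authors placed reads that match several copies is not given in the sources used here, so a value printed for one of these genes may hold reads of its copy.

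The deposited fold is a linear ratio of RIP over input at a peak's summit. Together the fold and its p give the number of RIP fragments there and the input level, where a fragment is 1 read as the peak caller counted it. The input library was scaled so that 1 input fragment counted as 0.634, so equal fragment numbers in both libraries give a fold above 1. Brackets after the fold of a single peak give its exact Poisson 95% interval at a fixed input level, which covers counting error only, and ranges over peaks are named as such. Over all 175546 peaks the median fold was 1.89, the median summit held 2 RIP fragments, and 46.2% of peaks rested on 1 fragment. Of 12 liver genes used to check the cell label, 9 had a peak over the gene, ALB with a fold of 3.67 on 5 fragments and APOB with 3.88 on 3, but AFP on 2 and KRT8, FGB and TF on 1 each. Of 10 marker genes of blood and vessel cells, 4 had one, 3 of them on 1 fragment and PECAM1 with a fold of 3.88 on 3, the same values as APOB.

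Peaks over histone genes were well covered in both libraries and modest in fold. The 58 peaks over the gene held a median of 15.5 RIP fragments (range 1 to 30) against a median of 13 input fragments (range 0.332 to 30). Their fold ran from 1.39 to 3.30 with a median of 1.65. The 98603 other peaks over their own gene had a median of 2 RIP fragments and a median fold of 1.89. Only 3 of the 58 rested on 1 fragment, and 54 held at least 5. Histone gene peaks thus had more fragments and a lower fold than the rest of the list.

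No peak over a histone gene reached a q of at most 0.05, where q is the authors' adjusted p. That was 0 of 58 peaks, which allows a share of up to 5.17% when 3 counts are taken as the limit of a count of 0 (exact Clopper-Pearson bound 6.16%), against 1.67% of all 98661 peaks over their gene. Counted by gene it was 0 of 52, which allows up to 5.77% by the same limit (exact bound 6.85%), against 8.25% of 16765 genes with a peak over them, which carry more peaks each than the histone genes. The highest values of −log10 q over a gene were 0.510 at H4C13, 0.373 at 1 of the H2AC18 loci and 0.0714 at H3C15. The other 55 stood at 0. Over all peaks 88.8% stood at 0 although every listed p was at most 0.05, so the adjustment took in more than the listed peaks. A fold of at least 2 was reached by 15 of 58 (25.9%, 15.3 to 39.0%), against 32.2% of all peaks over their gene. None of the 58 reached a fold of 4.

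**Figure D1:**
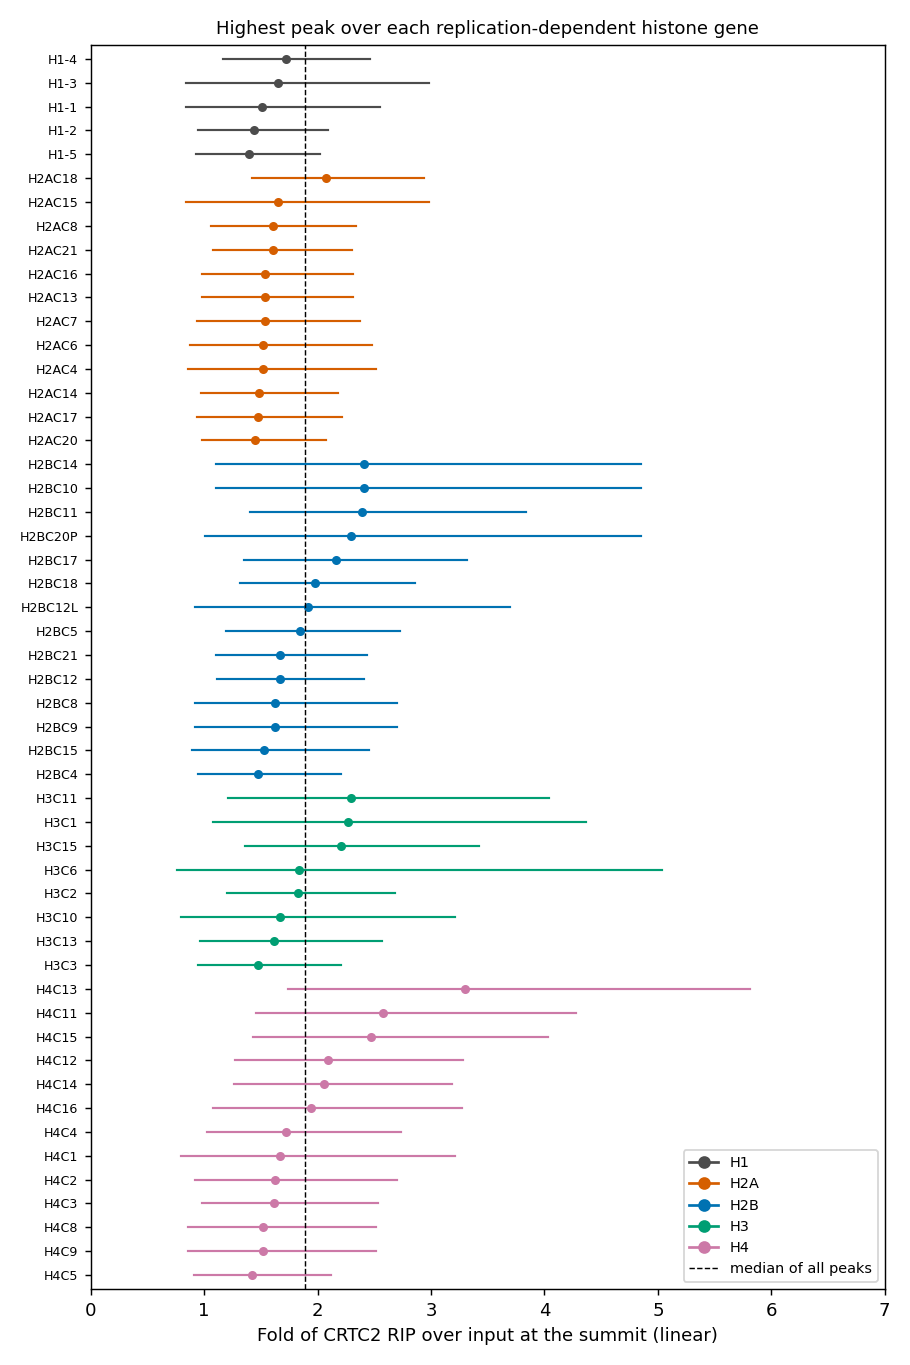
Highest fold of CRTC2 RIP over input among the peaks over each of the 52 histone genes, on a linear axis, grouped by family from H1 at the top to H4 at the bottom. Points are the deposited folds, lines their exact Poisson 95% intervals (counting error only), and the dashed line the median of all peaks, 1.89; every interval holds that median, and H4C13 has the highest point at 3.30.

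The members could not be ranked with confidence against each other. All 58 intervals overlapped that of the highest, H4C13, and all 58 held the median of all peaks. The interval lay above 1 for 26 of 58. Every listed peak had a p of at most 0.05, and equal fragment numbers already give a fold above 1. That count therefore follows in part from entry to the list, and its share over all peaks is not given here. By the deposited value, 18 of 58 stood above the median of all peaks and 40 below it. The order given below is therefore the order of the deposited values, and neighbours in it do not differ beyond counting error.

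The input covered histone genes strongly, and the list's p limit asks for a lower fold at higher input. A summit at the lowest input level needs 1 RIP fragment, a fold of 1.94, to enter the list. A summit with 8 input fragments needs 9, a fold of 1.65, one with 13 needs 13, a fold of 1.52, and one with 30 needs 26, a fold of 1.35. Of the 58 histone peaks, 17 (29.3%) held just the fewest RIP fragments that the list admits at their input level. The 5904 other peaks over a gene within the middle range of the histone peaks' input levels (8 to 21.75 input fragments) had a median fold of 1.68 (quartiles 1.62 and 1.91) and a median of 15 RIP fragments. At these levels 17.9% reached a fold of 2, and 36.1% held the fewest fragments admitted. In all, 47 of the 5904 (0.796%, 0.585 to 1.06%) reached the q limit, on 20 to 31 RIP fragments and folds of 2.55 to 4.48.

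Read at the same input, histone genes were spread around the middle of other genes. For 53 of the 58 peaks the input level was a whole number of input fragments. Of these, 23 held more RIP fragments than the median of other peaks over a gene with the same number of input fragments, 7 held just the median, and 23 held fewer. Between 44 and 9999 other peaks stood behind each such median. Histone peaks above the 95th percentile of the others numbered 3, namely H2BC18, H3C15 and an H2AC18 locus, and 1, H1-5, lay below the 5th. Peaks not at a whole input number were left out of this comparison, among them H2BC20P and H4C13, which had the highest fold.

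**Figure D2:**
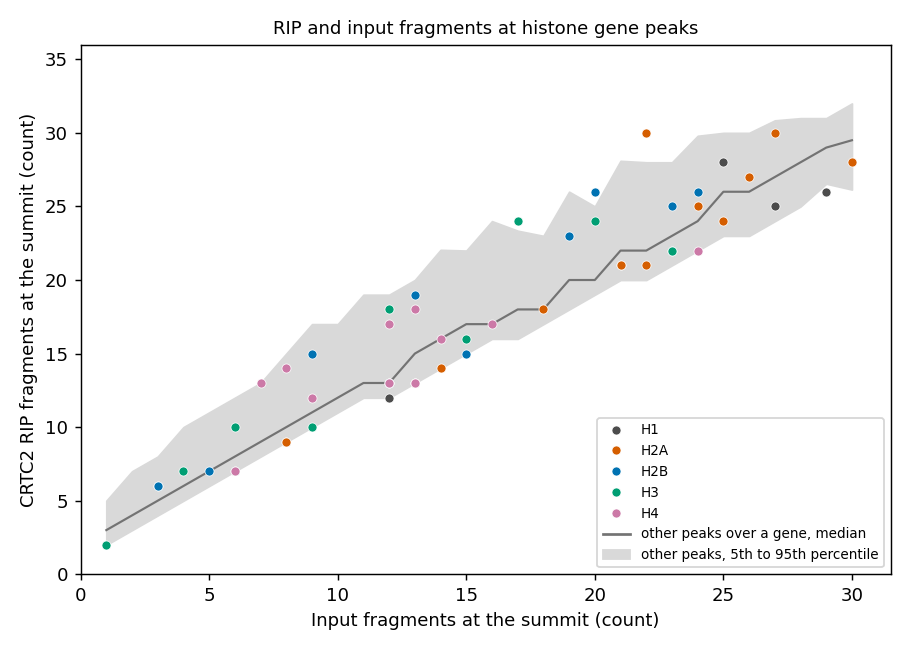
RIP fragments (vertical, count) against input fragments (horizontal, count) at the summit of the 53 histone peaks whose input level is a whole number, coloured by family, where some points coincide. The grey line and band are the median and the 5th to 95th percentile of other peaks over a gene at the same input; the histone peaks scatter on both sides of the line, 23 above it and 23 below it.

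The linker histone genes were among the most covered and had the lowest folds. H1 binds the DNA between nucleosomes. The 5 H1 genes with a peak over them had folds ranging from 1.39 to 1.72, with a median of 1.51. H1-4 had 28 RIP fragments against 25 input fragments, a fold of 1.72 (1.16 to 2.46), in the widest of the peaks over a gene at 637 bp (chr6:26156348-26156984). H1-5 had 26 RIP fragments against 29 in the input, a fold of 1.39 (0.928 to 2.02), and H1-2 had 25 against 27, a fold of 1.44 (0.949 to 2.09). H1-3 had 9 against 8 and H1-1 had 12 against 12. Of the H1 peaks, 4 of 5 lay below the median of other peaks at the same input.

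H2A genes showed the same picture of high coverage and low fold, with 1 fold of at least 2. H2A pairs with H2B in the nucleosome, on the outer faces of its core. The 13 peaks in 12 H2A genes had a median of 21 RIP fragments and of 22 input fragments, and a median fold of 1.54 (range 1.45 to 2.08). H2AC18 had the most RIP fragments of any member, 30 at each of its 2 peaks, against 27 input fragments at one and 22 at the other. The folds were 1.71 (1.17 to 2.42) at chr1:149842376-149842717 and 2.08 (1.42 to 2.93) at chr1:149851118-149851452. RefSeq names the second locus H2AC19, the near-identical copy. H2AC20 had 28 RIP fragments against 30 input fragments (fold 1.45, 0.980 to 2.07), H2AC21 had 27 against 26 (1.60, 1.08 to 2.31), and H2AC8 had 25 against 24 (1.60, 1.06 to 2.34). The 2.08 of the H2AC19 locus was the only H2A fold of at least 2.

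H2B genes had the highest family median. The 14 peaks in 14 genes had a median fold of 1.88 (range 1.48 to 2.41) on a median of 15 RIP fragments against 12.5 input fragments. H2BC10 and H2BC14 shared the top, each with 6 RIP fragments against 3 input fragments, a fold of 2.41 (1.10 to 4.85). H2BC11 followed with 15 against 9, a fold of 2.39 (1.40 to 3.84). The pseudogene H2BC20P had 5 RIP fragments at an input level equal to 2.54 fragments (2.30, 1.0 to 4.85). The best covered H2B peaks were H2BC18 with 26 against 20 (1.97, 1.32 to 2.86), H2BC12 with 26 against 24 (1.67, 1.11 to 2.41) and H2BC21 with 25 against 23 (1.67, 1.10 to 2.43). Of the 13 H2B peaks at a whole input number, 8 lay above the median of others at that input, 3 on it and 2 below.

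H3 peaks had the lowest median coverage, with H3C6 and H3C10 each giving 2 peaks of at most 10 RIP fragments. H3 and H4 form the tetramer at the heart of the nucleosome. The 11 peaks in 8 H3 genes had a median of 10 RIP fragments against 9 input fragments and a median fold of 1.83 (range 1.48 to 2.29). H3C11 had 10 against 6, a fold of 2.29 (1.21 to 4.04), and H3C1 had 7 against 4, a fold of 2.26 (1.08 to 4.36). H3C15 carried 2 peaks, with 18 RIP fragments against 12 (2.21, 1.36 to 3.42) and 24 against 17 (2.12, 1.39 to 3.12). RefSeq names the locus of the first H3C14. H3C10 carried 2 peaks as well, at 10 against 9 and 7 against 6, folds of 1.64 and 1.67. H3C6 held almost nothing, with 2 RIP fragments against 1 in one peak and 1 fragment in the other.

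H4 genes spanned the widest range. The 15 peaks in 13 H4 genes had a median of 13 RIP fragments against 12 input fragments and a median fold of 1.67 (range 1.42 to 3.30). H4C13 was the highest of all members, with 10 RIP fragments at an input level equal to 3.69 fragments, a fold of 3.30 (1.74 to 5.81), in a peak of 34 bp (chr6:27873306-27873339). H4C11 had 13 against 7, a fold of 2.58 (1.46 to 4.27), and its copy H4C12 had 17 against 12, a fold of 2.09 (1.27 to 3.28). H4C15 had 14 against 8, a fold of 2.47 (1.43 to 4.04), and its copy H4C14 had 18 against 13, a fold of 2.06 (1.26 to 3.19). The intervals overlap within each of these pairs of copies. At the other end H4C5 had 22 RIP fragments against 24 input fragments, a fold of 1.42 (0.912 to 2.12). H4C15 had 2 more peaks of 31 bp on 1 fragment each, which lay within a non-coding transcript of 7065 bp assigned to the gene and not over its histone mRNA.

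The genes fall into clusters, with peaks in blocks on chromosomes 1 and 6 and single genes on chromosomes 12 and 21. The block at chr1:149811879-149887965 held 14 peaks in 10 genes with a median fold of 1.84 (range 1.45 to 2.47) and a median of 21 RIP fragments. The largest block, chr6:26017032-26285534, held 24 peaks in 23 genes with a median fold of 1.62 (range 1.42 to 2.41) and 13.5 RIP fragments. A further block at chr6:27808173-27893891 held 15 peaks in 14 genes with a median fold of 1.65 (range 1.39 to 3.30), and 3 genes between these blocks had a median of 1.67. H4C16 on chromosome 12 stood at 1.94 on 12 fragments against 9, and H2BC12L on chromosome 21 at 1.92 on 7 against 5. Read at the same input, 9 of 11 chromosome 1 peaks lay above the median of other peaks, against 13 of 40 on chromosome 6. The 6 of these at chromosome 1 loci with a near-identical copy were all above it, and of the other 5 on that chromosome 3 were. The part of shared reads in that was not tested.

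Peaks mostly lay within the body of the histone mRNA, short of both its ends. Over the 53 peaks on transcripts under 1000 bp (49 genes, median length 486 bp), the first peak base lay a median of 122 bp after the start site and the summit a median of 233 bp after it. Split into 3 equal parts, the transcript held 36 summits in its middle part, 12 in its first and 5 in its last. The last peak base fell a median of 142 bp before the annotated end (quartiles 108 and 185). The peaks reached into the first 50 bp for 15 of 53 and into the last 50 bp, where the stem-loop lies in a histone mRNA, for 2 of 53. Those 2 were H2BC20P and H2BC12L. A peak covered a median of 40.0% of its transcript.

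**Figure D3:**
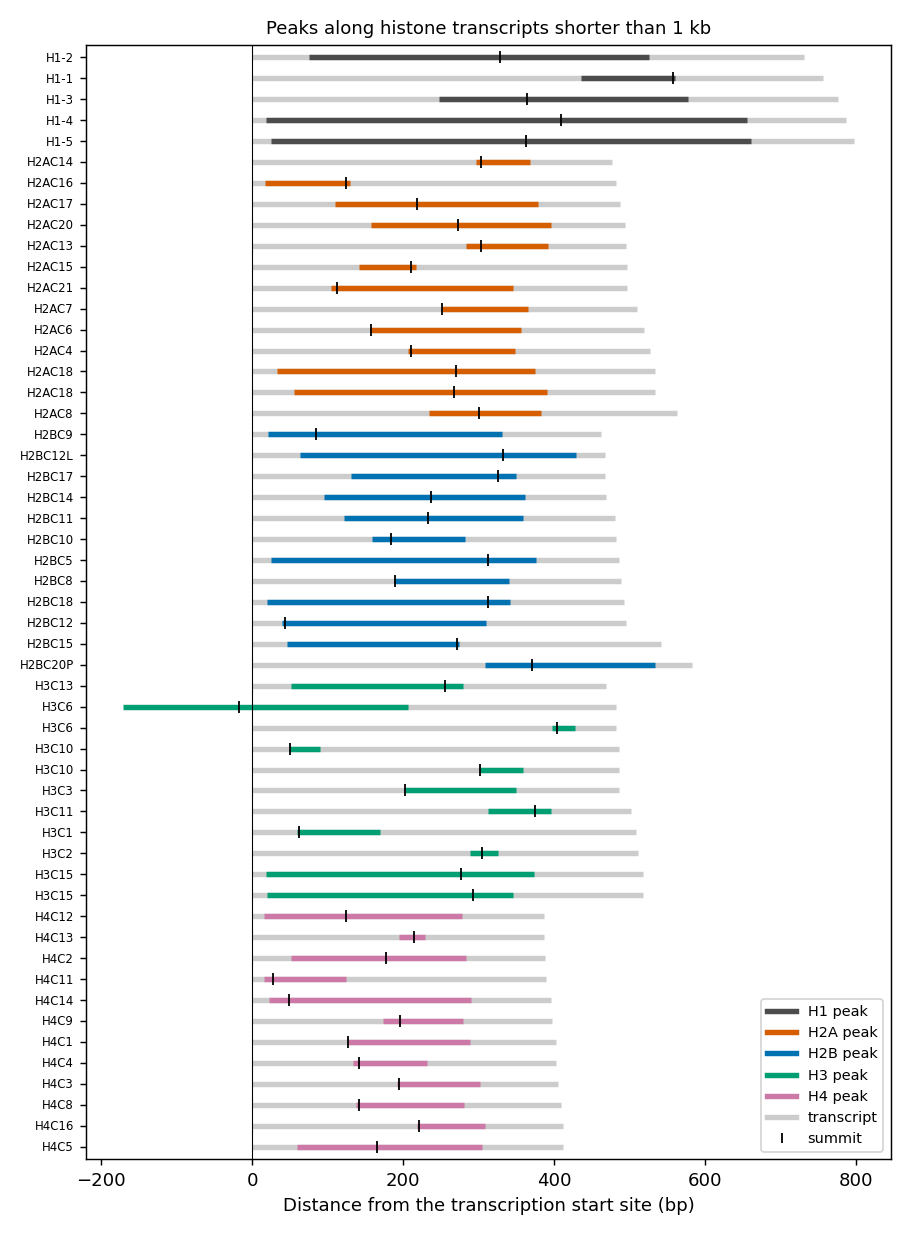
Peaks along the 49 histone transcripts shorter than 1000 bp, drawn in bp from the transcription start site; grey bars are transcripts, coloured bars are the 53 peaks by family, and black ticks are summits. The coloured bars begin a median of 122 bp after the start of the grey ones and end a median of 142 bp before them.

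Other short transcripts gave a limited comparison. With at least 5 RIP fragments, 2 of 51 histone peaks (3.92%) and 4 of 33 other peaks on transcripts under 1000 bp (12.1%) reached the last 50 bp. For the first 50 bp these shares were 27.5% of histone peaks and 27.3% of the others. The last peak base lay a median of 142 bp before the end in histone genes and 238 bp in the others. The short distance to the start also sets the region class. All 58 peaks over a histone gene were classed as promoter, 56 of them within 1 kb of the start, which here is the transcribed gene itself. Over all member peaks that class held 67 of 90 (74.4%), against 20.9% of all peaks.

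The 32 peaks assigned to a histone gene but not over it had little signal. They lay 322 to 28159 bp from the gene, a median of 4825.5 bp. They rested on 1 RIP fragment in 23 cases and on 2 in 4, and 10 were wider than 1 kb. By class, 17 were distal intergenic, 9 promoter, 4 3′ UTR, 1 intron and 1 downstream. The only member peak at a q of at most 0.05, 1 of 90 against 1.63% of all peaks, was among them. It was assigned to H4C8 but lay 25684 bp from it at chr6:26311218-26311253, with 5 RIP fragments, a fold of 5.37 (2.35 to 11.3) and a −log10 q of 3.11. In RefSeq that position is the glutamine tRNA gene TRQ-TTG3-1. The peak over H4C8 itself had 13 RIP fragments against 13 in the input, a fold of 1.52.

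Transfer RNA genes lie among the chromosome 6 histone genes, and the other neighbours with the most fragments were at them too. The single peak assigned to H2BC13 lay 16062 bp away on the tRNA gene TRQ-CTG6-1, with 7 RIP fragments against 3 input fragments, a fold of 2.76 (1.31 to 5.32). A second peak assigned to H4C8, 985 bp away on TRX-CAT1-2, had 4 against 1, a fold of 3.06 (1.28 to 6.88). These neighbours were singled out after their values were seen. They are values of the tRNA loci and not of the histone genes to which the nearest start site assigned them.

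H1-6, H2BC6, H3C8 and H2BC13 had assigned peaks and none over the gene. H1-6 encodes the linker histone of the testis, and its 2 peaks, on 1 fragment each, lay in the span of the long H2BC4 transcript. H2BC6 had 3 neighbouring peaks and H3C8 had 1, all on 1 fragment. RefSeq lists 70 protein-coding genes under the same symbols. Of these 55 had an assigned peak and 51 had one over the gene. When loci are named by position, H2AC19 and H3C14 carried the peaks described for H2AC18 and H3C15. H2AC12 carried a peak with 14 RIP fragments against 9, a fold of 2.24, that the list assigns to the microRNA gene MIR3143. The RefSeq span of H3C4 was overlapped by the peak assigned to H2AC7, with 18 RIP fragments against 18, a fold of 1.53. H2AC25 and H2BC26 lay under a peak of 60381 bp on 1 fragment, assigned to H3-4. H2AC1, H2AC11, H2BC1, H2BC3, H2BC7, H3C7, H3C12, H4C6 and H4C7 had no peak assigned and none over them.

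Genes that work with histones on other terms gave a frame for these values. Replication-independent variants replace the bulk histones outside S phase and mostly have polyadenylated mRNAs. The median of each gene's highest fold was 1.66 over the 52 replication-dependent genes and 1.84 over the 9 of 14 variant genes with a peak over them. H2AZ2 had 13 RIP fragments against 3 input fragments, a fold of 4.83 (2.73 to 8.01). H3-5, close in sequence to H3-3B, had 8 against 1, a fold of 5.51 (2.73 to 10.3). Both passed the q limit. MACROH2A1 had 7 against 2, a fold of 3.53 (1.68 to 6.80), and did not. H2AZ1, with 23 against 19 (1.84, 1.19 to 2.72), H2AX, with 15 against 12 (1.86, 1.09 to 2.99), and H2AJ, with 24 against 27 (1.38, 0.904 to 2.03), lay in the range of the replication-dependent genes.

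Genes for histone mRNA processing and histone chaperones had higher single peaks on fewer fragments. Of 18 processing genes 17 had a peak over the gene, with a median highest fold of 2.65, and LSM11, a subunit of the U7 particle that cuts histone pre-mRNA, passed the q limit with a fold of 4.32 (1.81 to 9.72) on 4 fragments. UPF1 followed at 4.02 on 5 fragments, CASP8AP2 at 3.71 on 3 and CSTF2 at 3.10 on 8 against 3. SLBP had 8 peaks, with the highest fold at 1.68 on 1 fragment, and another of its peaks had 1.47 on 21 fragments. Of 20 chaperone genes 19 had a peak, with a median highest fold of 3.07. CABIN1, of the HIRA complex, reached 5.01 (2.19 to 10.6) on 5 fragments, and NAP1L1, an H2A-H2B chaperone, 3.39 (2.26 to 4.91) on 26 RIP fragments against 11. Both passed the q limit, while HIRA stood at 3.67 on 5 fragments, UBN1 at 3.50 on 6 and RBBP7 at 3.45 on 9 against 3. These genes are longer and carry more peaks each, so their highest fold is drawn from more values. A peak at the q limit lay over 2 of 9 variant, 1 of 17 processing and 2 of 19 chaperone genes. The share was 8.25% of all 16765 genes with a peak over them. Folds were not matched for input, which among the genes at the q limit ran from 0.248 fragments at LSM11 to 11 at NAP1L1. The lists are described here and not tested.

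**Figure D4:**
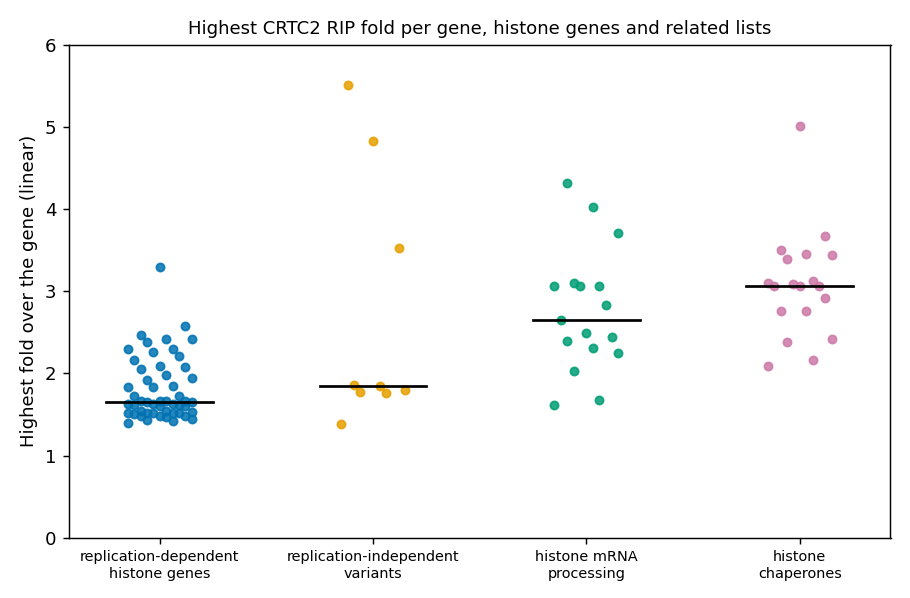
Highest fold of CRTC2 RIP over input among the peaks over each gene, on a linear axis, for the 52 replication-dependent histone genes (left) and the 9 variant, 17 processing and 19 chaperone genes with a peak over them. Points are genes and black lines are medians, at 1.66, 1.84, 2.65 and 3.07 from left to right.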

How the data were processed

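RNA of 1 CRTC2 RIP library and 1 input library of HCCLM3 cells was sequenced. The tools named per the submitters' processing notes are HISAT2 and MACS2, with the build hg38, and no versions are named. The authors deposited 1 annotated peak list, without strand and without read totals, so the depth of the libraries is unknown. Its fold is a linear ratio the authors computed at the summit, taken here as RIP over input. The deposited −log10 p and −log10 q columns were known by place and value, since their headers are damaged, and the lowest −log10 p was 1.30. The deposited score was not used further.

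With a pseudocount of 1, fold and p give the RIP fragments at a summit and the input level: a whole number met both within 0.001 for 100% of peaks, and a single number for all 90 member peaks. An input level within 0.01 of a whole number of input fragments was taken as whole. A peak was over its gene when it overlapped the assigned transcript by any base. Intervals of folds are exact Poisson, those of shares exact Clopper-Pearson, both at 95%, and cover counting error only. RefSeq tables gave names, spans and promoter letters. Python 3.11.15, pandas 2.3.3, numpy 2.4.6 and scipy 1.17.1 were used.

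Members, lists and measures were chosen with earlier results of these data known. Genes named are the 10 with the highest fold and the 10 with the most fragments over the gene, the highest of each family, and those with no peak over the gene. In each related list they are those with a peak at a q of at most 0.05 and up to 4 with the highest fold. Any other gene named was singled out after its values were seen. The comparison at like input was also added after the data were seen.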

Additional observations from a re-analysis of the deposited data

How the results depend on the processing

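Of 33 values under other settings, 29 stayed within 1.5 times of the value reported. The 52 genes with a peak over the gene became 0 once a fold of 4 was required, 0 once a q of at most 0.05 was, and 51 once 5 fragments were. The 1 member peak at a q of at most 0.05 became 0 when only peaks over the gene were counted, and the 67 promoter peaks became 0 at that q. The median fold ranged from 1.65 to 1.66 and the median fragments from 15.5 to 17. Requiring the summit inside the gene left 57 of 58 peaks, and the RefSeq gene span gave 59. Naming loci by position gave 54 genes. The RefSeq span, naming by position and the subset at a whole input number were chosen after seeing the data. No paired analysis was possible because each group has 1 library and no result comes from a test. At 13 input fragments, 13 RIP fragments pass the list's p limit, at a fold of 1.52. No interval here separates 1 histone gene from another.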
